A study of Mus musculus with 2 samples.

Results

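Myogenic precursors were the cells of the embryonic eye cup that held RNA of at least 2 of Pax7, Myf5, Myod1 and Myog, the transcription factors that define muscle stem cells and committed muscle precursors. Of 36146 cells kept from 2 single-cell RNA-seq libraries, 439 were such cells, 308 of 17017 in Myrf humWT/humWT and 131 of 19129 in Myrf humdG/humdG. A kept cell had more than 500 genes detected and under 15% of its unique molecular identifiers (UMIs, each standing for 1 captured RNA molecule) from mitochondrial genes, and a member additionally had either a Pax7 UMI or a summed Ttn, Neb, Myh3, Mybpc1 and Ryr1 share below 0.5% of its UMIs, a limit meant to keep out muscle fibres. The members were thus selected on measured UMIs of Pax7, Myf5, Myod1, Myog and the 5 sarcomere genes, and the levels of those genes are given below as a description of the choice.

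The study asked how a C-terminal frameshift of MYRF, a membrane-bound transcription factor, alters the developing eye. Both libraries came from E17.5 embryos on a C57BL/6J background and of both sexes. Each was prepared from 3 pooled eye cups as the labels give it, with lens and optic nerve removed and the tissue dissociated with papain. The protocol text of the labels speaks of pools with floxed Myrf alleles instead, so the genotypes here rest on the sample titles and genotype labels, and the labels and the methods of the study differ on the number of eyes and on whether the cornea was left. In humWT the mouse Myrf exon at the C-terminal end was replaced by its human counterpart on both alleles, and in humdG by the same human exon carrying the frameshift, so that the control also carries the humanized exon. The allele is present in every cell of the embryo, not in 1 cell type, and the homozygous humdG embryos die before birth. Each genotype is 1 pooled library, so nothing was replicated and the genotypes were compared without a test. Every interval below is an exact 95% interval that covers counting error only, cells of 1 library are not replicates, and a difference between libraries cannot be told apart from a difference in dissection, dissociation or library preparation.

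Extraocular muscles move the eyeball and arise from head mesoderm next to the optic cup, where Pax3 does not have the part it plays in the trunk. Pax7 marks the stem and progenitor pool, Myf5 and Myod1 commit cells to the muscle lineage, and Myog drives exit from the cell cycle and differentiation into myocytes that fuse into fibres. All of these factors except Pax7 are basic helix-loop-helix proteins that bind the E-box, CANNTG, and members of the family favour CAGCTG in muscle genes.

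Promoters of Myog, which splits the precursors into early and late cells below, and of Actc1, Tnnt2 and Chrna1, an actin, a troponin and a subunit of the acetylcholine receptor that were far higher in the late cells, are shown first. Actc1 and Tnnt2 led the ranking of late genes among those with a promoter in the table, and Tnnt2 and Chrna1 were picked with their E-boxes known, so they do not stand for the late genes as a whole. Each run is the 250 bases before the RefSeq transcription start on GRCm38.p6, written 5′ to 3′ on the strand of the gene, with E-boxes in capitals. The Myog window is chr1:134289754-134290003 on the plus strand, the Actc1 window chr2:114052876-114053125 on the minus strand, the Tnnt2 window chr1:135836084-135836333 on the plus strand, and the Chrna1 window chr2:73580339-73580588 on the minus strand.
Myog: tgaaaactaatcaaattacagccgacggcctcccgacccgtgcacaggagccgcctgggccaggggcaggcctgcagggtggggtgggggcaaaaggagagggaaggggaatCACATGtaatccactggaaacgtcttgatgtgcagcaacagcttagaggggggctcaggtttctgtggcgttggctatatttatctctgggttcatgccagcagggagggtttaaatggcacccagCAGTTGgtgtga
Actc1: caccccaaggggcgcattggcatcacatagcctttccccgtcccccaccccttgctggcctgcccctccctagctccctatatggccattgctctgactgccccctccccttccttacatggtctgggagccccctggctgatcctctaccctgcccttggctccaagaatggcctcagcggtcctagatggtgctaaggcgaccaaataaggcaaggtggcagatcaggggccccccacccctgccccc
Tnnt2: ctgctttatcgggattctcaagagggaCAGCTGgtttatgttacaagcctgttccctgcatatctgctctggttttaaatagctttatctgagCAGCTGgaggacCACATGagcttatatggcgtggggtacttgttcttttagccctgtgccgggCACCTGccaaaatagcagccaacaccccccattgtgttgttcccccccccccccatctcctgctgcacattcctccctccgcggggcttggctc
Chrna1: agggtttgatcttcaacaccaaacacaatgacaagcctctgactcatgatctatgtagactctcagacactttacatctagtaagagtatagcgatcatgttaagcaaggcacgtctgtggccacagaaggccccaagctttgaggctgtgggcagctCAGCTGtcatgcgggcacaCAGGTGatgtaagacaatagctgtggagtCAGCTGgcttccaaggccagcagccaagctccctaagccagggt
The Myog window held 2 E-boxes, which began 138 and 12 bases before the start, and no CAGCTG. By contrast the Actc1 window held 0 E-boxes. Tnnt2 held 4 E-boxes, 2 of them CAGCTG, and Chrna1 held 3, of which 2 were CAGCTG. Both motifs read the same on either strand, and CAGCTG is itself 1 of the forms of CANNTG. Among all 27025 promoter windows of this length in the RefSeq table, 17848 (66.0%) held a CANNTG and 3450 (12.8%) a CAGCTG. A match in a promoter window is a description of its letters and does not show that a factor binds there.

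Myogenic precursors made up 1.81% of kept cells in humWT (interval 1.61 to 2.02%) and 0.685% in humdG (0.573 to 0.812%), a share ratio of 0.378 (0.306 to 0.466) of humdG over humWT. The direction turned when members with RNA of at least 3 genes of another cell type were left out, to 0.0294% and 0.0784%, which left 5 and 15 members. Connective tissue cells, called from at least 3 of Pdgfra, Prrx1, Twist1, Twist2, Lum and Dpt, were 16.5% of humWT and 5.80% of humdG cells, a ratio of 0.351 (0.327 to 0.376). Muscle fibres, cells outside the precursors with at least 0.5% of UMIs from the 5 sarcomere genes, were 3.68% and 0.946%, a ratio of 0.257 (0.217 to 0.304). All 3 tissues from outside the retina thus held a smaller share in humdG, while retinal cells held 1.78 times their humWT share. Set against the tissue around them, there were 10.9 precursors per 100 connective tissue cells in humWT and 11.8 in humdG (ratio 1.08, 0.873 to 1.33). Per 100 fibres there were 49.2 and 72.4 precursors (ratio 1.47, 1.19 to 1.81). How much tissue outside the retina stayed on the eye cups was not measured, and its part in the lower share was not tested.

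The precursors were deeply sampled. A humWT precursor held 18635.5 UMIs and 4235 genes in the median and a humdG precursor 18864 UMIs and 4068 genes, against medians of 3785 and 2574 UMIs over all kept cells. Since 2 genes must be detected, deeper cells enter more easily: the 1105 humWT and 467 humdG cells with RNA of exactly 1 of the 4 genes had medians of 4176 and 2994 UMIs. Just inside the rule were 211 and 88 members with exactly 2 of the genes, while 97 and 43 had 3 or 4, and 19 and 3 had all 4. The sarcomere limit removed 0 cells in either library. Its highest value in a member without Pax7 was 0.432% in humWT and 0.401% in humdG, and 2 and 1 members with Pax7 lay above it, up to 0.703% and 1.65%. Of its 5 genes, Ttn stood at 465 CPM (UMIs of the gene per 1e6 UMIs of the group) in humWT and 374 CPM in humdG precursors, Neb at 115 and 98.8 CPM, Myh3 at 84.9 and 35.7 CPM, Mybpc1 at 87.4 and 63.9 CPM and Ryr1 at 45.4 and 47.4 CPM. The fibres, chosen for high levels of the same genes, had 8873 and 9832 CPM of Ttn. Of 102 barcodes found in both libraries, none was a precursor in both.

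Pax7 (chr4:139737062-139833528, minus strand) was detected in 238 humWT precursors (77.3%) and 97 humdG precursors (74.0%), with a median of 3 UMIs in the cells that had it. Myf5 (chr10:107482908-107486134, minus strand) was detected in 66.2% and 72.5%, and Myod1 (chr7:46376474-46379099, plus strand) in 53.2% and 52.7%. Myog (chr1:134289989-134292548, plus strand) was detected in 126 (40.9%) and 47 (35.9%) precursors, and was the most unevenly spread of the 4 genes, from 1 UMI in 56 and 16 cells to 136 UMIs in the highest cell of each library. Red blood cells, which should lack all 4 genes, serve as a measure of free RNA: with median depths of 4175 and 3388 UMIs, 0.189% and 0.266% of them had a Pax7 UMI and 3.41% and 1.33% a Myog UMI. Connective tissue cells had a Myog UMI in 5.44% and 2.43%, so stray Myog RNA was more frequent than stray Pax7 RNA in both libraries.

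The label was checked against 10 markers that the rule does not use. A precursor had RNA of a median of 6 of them in each library, against a median of 0 over all other kept cells, and 275 of 308 humWT and 120 of 131 humdG precursors had at least 3. Msc, a repressor of the helix-loop-helix family active in head muscle (chr1:14753346-14755992, minus strand), stood at 199 CPM in humWT and 206 CPM in humdG precursors, 21.6 and 43.6 times the level in all other kept cells. Fgfr4, the fibroblast growth factor receptor of muscle progenitors (chr13:55152640-55168759, plus strand), stood at 150 and 158 CPM, 39.7 and 57.5 times the other cells. Cdh15, the adhesion protein M-cadherin, was 34.5 and 40.7 times, the acetylcholine receptor subunit Chrna1 15.5 and 36.0 times, and the cofactor Vgll2 22.3 and 76.7 times higher. These 5 of the 10 markers were the ones at least 10-fold higher in each library, where 0.305% of all 19651 genes tested in humWT and 0.415% of 19289 in humdG were. The cells had been chosen for related genes, so nothing is read from that difference.

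Other markers were less particular to the precursors. Eya1, a transcriptional coactivator upstream of the muscle factors, was 3.92 and 5.92 times, and the receptor Megf10 6.12 and 4.99 times, the level in all other cells. Des, the intermediate filament desmin, stood at 79.8 and 44.5 CPM, below the 156 and 155 CPM of the fibres. Pax3, the regulator of trunk and limb precursors, stood at 2.57 and 3.71 CPM, Tbx1 at 0.947 and 0.571 CPM and Tcf21 at 1.35 and 0.285 CPM, while Lbx1, a marker of migrating limb precursors, had 0 UMIs in 439 cells. None of the 10 markers was detected in 8 humWT and 5 humdG members. The place of the cells in the extraocular muscles follows from the dissected tissue, not from a marker found in them alone.

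**Figure D1:**
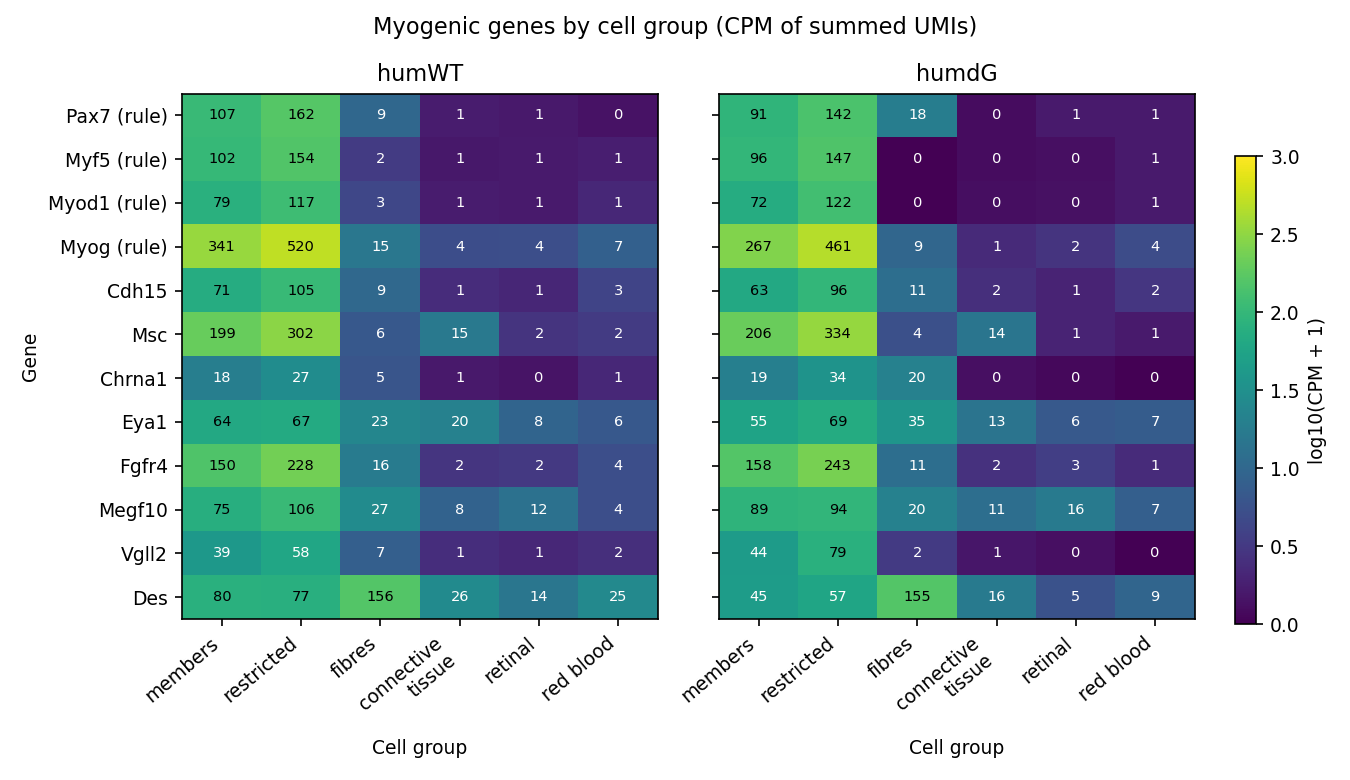
Heat maps of the level in CPM (colour, log scale, value printed in each cell) of the 4 rule genes and 8 of the further markers, by cell group, with humWT and humdG in separate panels. Msc, Fgfr4, Cdh15 and Vgll2 stand out in the precursors, while Chrna1 in humdG is about as high in fibres and Des is higher there.

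Ranked by the lower of the 2 libraries' ratios to all other kept cells, with 10 CPM added to both sides, the 15 leading genes outside the rule were Fgfr4, Msc, Mrln, Mymx, Actc1, Fitm1, Cdh15, Pdlim4, Pdgfa, Cep41, Tnnt2, Car3, Gm28653, Cdkn1c and Ank1. Mrln, which encodes the micropeptide myoregulin of the calcium pump, stood at 141 and 126 CPM against 5.45 and 2.93 CPM elsewhere. Mymx, which encodes the fusion peptide myomixer, stood at 97.2 and 97.1 CPM against 1.62 and 0.772 CPM. Actc1, the cardiac actin that embryonic skeletal muscle uses first, stood at 404 and 320 CPM against 35.4 and 15.3 CPM. Cdkn1c, an imprinted inhibitor of cyclin-dependent kinases, reached 4743 and 4364 CPM against 1006 and 694 CPM, and Pdgfa, a growth factor for neighbouring mesenchyme, 223 and 167 CPM against 33.1 and 17.3 CPM. These genes were ranked after the cells had been chosen for muscle factors, so the ranking describes the cells and does not test them.

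Against muscle fibres, the precursors were highest in Msc, Pdlim4, Cep41, Mymx, Cdkn1c, Fgfr4, Akr1b3, Itm2a, Emp3 and Nppc. Itm2a, a membrane protein of early muscle, stood at 1300 and 1187 CPM against 154 and 208 CPM in fibres. Among the genes in which they were lowest were Mlip, Trdn, Ryr3, 5430431A17Rik, Myh8, Erbb4, Gphn, Ldb3 and Pdlim3, of which several build the contractile apparatus. Trdn, the triadin of the calcium release complex, stood at 13.7 and 7.99 CPM against 236 and 307 CPM, Myh8, the perinatal myosin heavy chain, at 51.5 and 22.0 CPM against 486 and 696 CPM, and Ldb3, a protein of the Z-disc, at 23.0 and 5.99 CPM against 240 and 290 CPM. The fibres were shallow, with medians of 2874.5 and 2037 UMIs, and Gm42418, a gene model that overlaps ribosomal RNA sequence, took 249645 and 147747 CPM of their counts against 28027 and 31762 CPM in precursors.

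RNA of other cell types was present among the precursors and differed between libraries. The connective tissue list (9 genes) summed to 13461 CPM in humWT and 1590 CPM in humdG precursors, led in humWT by Col1a1 at 6130 CPM, and the tendon list (Scx, Tnmd, Mkx and Kera) to 722 and 69.7 CPM. The lists for retinal progenitors and retinal neurons went the other way, at 225 and 156 CPM in humWT and 717 and 602 CPM in humdG. Members with at least 50000 UMIs, 16 in humWT and 9 in humdG, held 24.4% and 35.5% of all precursor UMIs, and 20 humWT members and 0 humdG members with at least 1000 CPM of the tendon list held 90.7% of the tendon UMIs. Leaving out the 5% of cells with the highest Scrublet doublet score in each library kept 284 of the 308 humWT and all 131 humdG precursors. Whether the other barcodes hold 1 cell or several was not settled by it.

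A restricted set was therefore made after the data had been seen, with under 50000 UMIs, under 500 CPM of each of the retinal progenitor, retinal neuron and pigment epithelium lists, and under 5000 CPM of the connective tissue list. It kept 212 humWT (68.8%) and 96 humdG precursors (73.3%) and used no muscle gene. These limits fix that RNA of the 4 lists is low in it. The connective tissue list summed to 1410 and 744 CPM, below the 3297 and 1316 CPM of red blood cells, the retinal progenitor list to 79.2 and 124 CPM against 219 and 417 CPM, the retinal neuron list to 36.9 and 52.1 CPM against 157 and 237 CPM, and the pigment epithelium list to 78.0 and 38.3 CPM against 524 and 731 CPM. The tendon list stood at 73.5 and 72.9 CPM, led by Scx, and was not below the 42.5 and 18.3 CPM of red blood cells. Tyr, Slc45a2, Twist2, Kera, Matn1, Cnmd, Kcnj8, Tyrobp, Sox10 and Foxd3, defining markers of pigment cells, connective tissue, tendon, cartilage, vessel wall, macrophages and neural crest glia, were at 0 in the restricted humdG set. In the restricted humWT set they were not all at 0: Cnmd had 32 UMIs, Tyr 20, Twist2 14, Kcnj8 10, Kera 8, Tyrobp 5, Matn1 and Slc45a2 3 each and Foxd3 1, with Sox10 at 0. Msc, Fgfr4 and Cdh15 were all higher in the restricted set than in all members, at 302 and 334 CPM, 228 and 243 CPM, and 105 and 96.3 CPM.

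**Figure D2:**
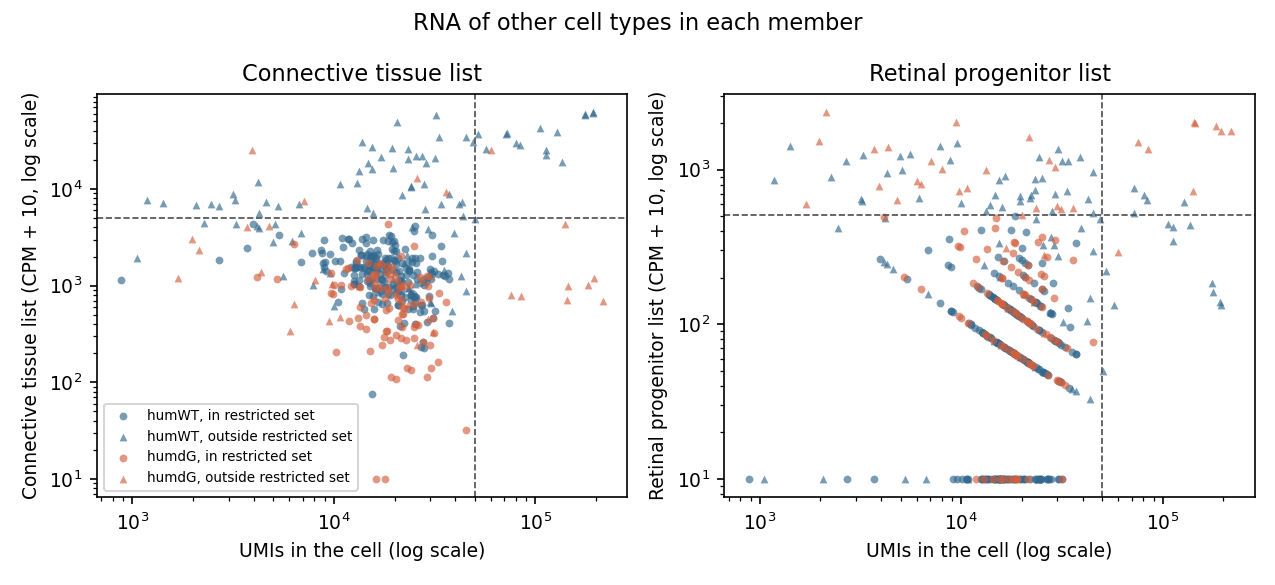
Each point is 1 precursor, with its total UMIs on the x axis (log scale) and its level of the connective tissue or retinal progenitor list in CPM plus 10 on the y axis (log scale), by library. Dashed lines mark 50000 UMIs and the limits of 5000 CPM and 500 CPM, below which the restricted set lies, and humWT has more cells above the connective tissue limit than humdG.

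Pax7 and Myog split the precursors along the path from progenitor to myocyte. In humWT 173 of 308 (56.2%, 50.4 to 61.8%) had Pax7 without Myog, 65 (21.1%) had both, 61 (19.8%, 15.5 to 24.7%) had Myog without Pax7 and 9 (2.92%) had neither. In humdG the numbers were 77 of 131 (58.8%, 49.8 to 67.3%), 20 (15.3%), 27 (20.6%, 14.04 to 28.55%) and 7 (5.34%). The shares of Pax7-only and of Myog-only cells had overlapping counting intervals in the 2 libraries. In both, the Myog-only share was lower when Myog needed 3 UMIs or when 3 rule genes were required. Both follow from the settings: a higher Myog threshold can only take cells out of the class. With 3 rule genes only the Myog-only cells with both Myf5 and Myod1 remain, 5 in humWT and 4 in humdG. The Myog-only share was higher without members with RNA of another cell type, and these values are given further below. The most frequent combination of the 4 genes was Pax7 with Myf5 alone, in 108 humWT and 49 humdG cells, and among Myog-only cells it was Myod1 with Myog, in 48 and 19. Cells with both had higher median UMIs, 23328 and 26946, than Pax7-only cells at 17704 and 18590. Since the 19 humWT and 5 humdG cells with Pax7 and Myog but neither Myf5 nor Myod1 numbered only 2 and 0 in the restricted set, levels by state are given for that set.

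**Figure D3:**
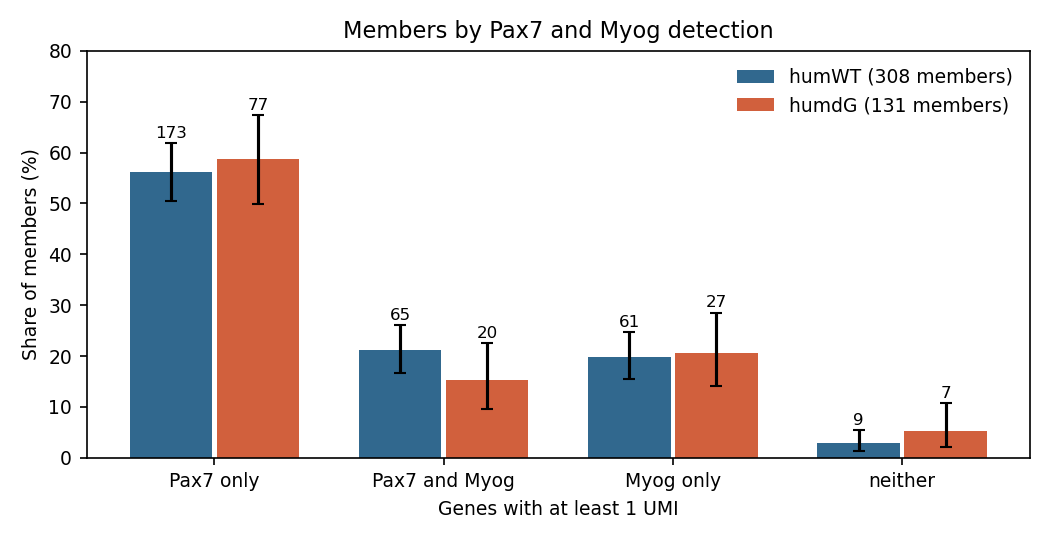
Bars give the percent of precursors with Pax7 only, both Pax7 and Myog, Myog only, or neither, in humWT and humdG, with exact 95% binomial intervals and the number of cells above each bar. Pax7-only cells are the largest class in each library, 56.2% and 58.8%, and the intervals of the 2 libraries overlap in each class.

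The restricted set held 136 humWT and 62 humdG Pax7-only cells, 37 and 11 with both, and 32 and 18 Myog-only cells, at medians of 17485 and 18501.5 UMIs in the first and 21080 and 17847 in the last. Pax7 and Myog themselves made the split: Myog stood at 619 and 895 CPM in cells with both and at 2552 and 1914 CPM in Myog-only cells. Myf5 stood at 199 CPM in Pax7-only cells of each library, and at 7.96 and 12.2 CPM in Myog-only cells. Myod1 ran the other way, from 62.5 and 62.8 CPM in Pax7-only cells to 205 and 260 CPM in Myog-only cells. Both genes also helped to choose the members, and a Myog-only cell had to hold at least 1 of them. The genes that follow took no part in the choice of members or of states, except where said. Over all 9539 genes tested in humWT, 6.78% were at least 2-fold higher and 21.7% lower in Myog-only cells (median log2 ratio of Myog-only over Pax7-only -0.18), and over 7125 genes in humdG 8.65% were higher and 18.4% lower (median -0.07).

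Of the fusion genes, Mymx and Mymk showed the widest contrast. Mymx (chr17:45600971-45602102, minus strand) stood at 2.40 CPM in Pax7-only cells, 153 CPM in cells with both and 799 CPM in Myog-only cells of humWT, a ratio of 332 (152 to 910) between the ends. In humdG it stood at 1.70, 358 and 663 CPM, a ratio of 391 (107 to 3246). Mymk, which encodes the fusion protein myomaker (chr2:27061636-27072179, minus strand), had 0 UMIs in Pax7-only cells of either library and 258 and 193 CPM in Myog-only cells, at least 214-fold and 75.6-fold higher when a group at 0 is set to 3 counts. Jam3, an adhesion molecule between precursors, went from 38.5 to 344 CPM and from 58.6 to 342 CPM. These 3 were the fusion genes at least 2-fold higher in Myog-only cells, of 7 tested in humWT with 0 lower, and of 6 in humdG with 1 lower (median log2 ratios 0.53 and 1.61), while Dock1, a guanine nucleotide exchange factor, stood at 78.9 and 58.9 CPM in humWT and in humWT Myof, which repairs and fuses membranes, went from 14.02 to 6.36 CPM, a log2 ratio of -0.99 with 0.5 counts added to each side. In humdG Myof went from 23.8 to 3.06 CPM and was the 1 lower gene.

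Genes of the contractile apparatus, outside the 5 used by the rule, were mostly higher in Myog-only cells. Of 22 with at least 20 UMIs in humWT, 13 were at least 2-fold higher and 1 lower (median log2 ratio 1.37), and of 15 in humdG 11 were higher and 0 lower (median 2.16). Actc1 went from 46.9 to 706 to 2673 CPM over the 3 states in humWT and from 34.0 to 1070 to 2119 CPM in humdG, ratios of 57.0 (47.3 to 69.4) and 62.4 (45.3 to 88.1). Tnnt2, the cardiac troponin T of early skeletal muscle, went from 5.61 to 622 CPM and from 1.70 to 431 CPM, and the slow troponin Tnni1 from 2.00 to 102 CPM and from 1.70 to 91.7 CPM. The humWT direction of Tnnt2 turned when 3 rule genes were required, which left few Myog-only cells. Klhl41, which stabilizes nascent sarcomeres, went from 1.20 to 55.7 CPM and from 0.849 to 55.0 CPM. The fast troponin Tnni2 went against the other troponins, from 238 CPM in Pax7-only cells to 52.5 CPM in Myog-only cells of humWT and from 170 to 85.6 CPM in humdG. Of the 5 sarcomere genes of the rule, whose sum limits cells without Pax7, Ttn went from 225 to 527 CPM and from 207 to 636 CPM, Neb from 69.3 to 285 CPM and from 71.3 to 260 CPM and Ryr1 from 32.4 to 84.3 CPM and from 34.8 to 116 CPM. Mybpc1 was the 1 lower in Myog-only cells, at 35.003 against 92.1 CPM and 18.3 against 80.7 CPM.

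Receptors and adhesion proteins divided between the states. Of 24 surface genes tested in humWT, 5 were at least 2-fold higher and 11 lower in Myog-only cells, and of 22 in humdG 4 were higher and 5 lower (median log2 ratios -0.70 and -0.68). Chrna1 stood at 3.20 CPM in Pax7-only and 127 CPM in Myog-only cells of humWT, and at 3.40 and 125 CPM in humdG. Its humWT direction turned without members with RNA of another cell type, which left few cells. Musk, the kinase that gathers acetylcholine receptors at the synapse, went from 11.2 to 50.9 CPM and from 11.9 to 39.7 CPM, and Megf10 from 71.3 to 213 CPM and from 54.3 to 196 CPM. Calcr, the calcitonin receptor of quiescent muscle stem cells, was on the Pax7 side, at 46.9 and 58.6 CPM against 0 UMIs in Myog-only cells, at least 9.82-fold and 6.39-fold higher. Fgfr4 stood at 261 and 259 CPM in Pax7-only and at 123 and 147 CPM in Myog-only cells, and its humdG direction turned when 3 rule genes were required.

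Notch signalling keeps progenitors from differentiating, through receptors on 1 cell, ligands on its neighbour and repressors of the Hes and Hey families as targets. The receptor Notch3 was on the Pax7 side, at 143 CPM in Pax7-only, 55.1 CPM in both and 6.36 CPM in Myog-only cells of humWT, and at 122, 26.1 and 3.06 CPM in humdG. The targets went with it: Hes1 stood at 153 and 134 CPM against 11.1 and 30.6 CPM, Heyl at 39.3 and 24.6 CPM against 0 and 3.06 CPM, and Hey1 at 20.03 and 25.5 CPM against 0 UMIs in either library. Notch1 and Notch2 differed by less than 2-fold between these states, with Notch1 at 36.9 and 46.1 CPM in humWT, and Hes6, which acts against Hes1, was on the Myog side at 152.7 against 64.5 CPM in humWT and, by less than 2-fold, 131 against 81.5 CPM in humdG. The ligand Dll1 stood at 2.40 CPM in Pax7-only and 14.3 CPM in Myog-only cells of humWT, and at 18.7 and 48.9 CPM in humdG. Of 10 Notch genes tested in each library, 4 were at least 2-fold lower and 1 higher in Myog-only cells (median log2 ratios -0.52 and 0.09).

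Cell cycle genes were on the Pax7 side and their inhibitors were split. Of 20 cycling genes, 0 were at least 2-fold higher and 15 were lower in Myog-only cells of humWT (median log2 ratio -1.68), and 0 and 11 in humdG (median -1.23). Top2a stood at 247 CPM in Pax7-only, 303 CPM in both and 39.8 CPM in Myog-only cells of humWT, and at 320, 265 and 36.7 CPM in humdG, and Cdk1 at 223 and 219 CPM in Pax7-only against 35.003 and 45.9 CPM in Myog-only cells. Of 8 inhibitors and exit genes, 5 were higher and 3 lower in each library (median log2 ratios 1.48 and 1.67). Cdkn1a, or p21, went from 29.6 to 240 CPM and from 32.3 to 245 CPM, Rb1, the retinoblastoma protein, from 25.6 to 224 CPM and from 23.8 to 199 CPM, and Cdkn1c, already high in Pax7-only cells at 5439 and 5237 CPM, to 11332 and 11166 CPM. Cdkn1b went the other way, from 59.7 to 23.9 CPM in humWT.

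Matrix and basement membrane genes were on the Pax7 side. Of 18 tested in humWT, 0 were at least 2-fold higher and 15 lower in Myog-only cells (median log2 ratio -2.12), and of 17 in humdG 0 and 14 (median -2.04). Col15a1, a collagen of the basement membrane zone, stood at 214 and 144 CPM in Pax7-only against 36.6 and 33.6 CPM in Myog-only cells, Lama4, a laminin chain, at 107 and 90.9 CPM against 7.96 and 9.17 CPM, and Col4a1, of the basement membrane itself, at 694 and 509.5 CPM against 135 and 193 CPM. Connective tissue also makes these proteins, and its RNA moved with the contrast. In humWT 4 of 8 connective tissue genes were at least 2-fold lower in Myog-only cells (median log2 ratio -1.01), with Col3a1 at 454 against 181 CPM and Col1a2 at 641 against 258 CPM, and in humdG 3 of 4 (median -1.51). The whole connective tissue list summed to 1614 CPM in Pax7-only and 767 CPM in Myog-only cells of humWT, and to 958 and 315 CPM in humdG. The red blood cell list had 4 of 5 genes lower in humWT (median -1.20), with Hbb-bs at 1619 against 601 CPM, and 0 of 4 in humdG. The part of RNA from other cells in the matrix contrast was not tested.

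Regulators of the muscle lineage were divided between the states. Msc stood at 405, 175 and 74.8 CPM over the 3 states in humWT and at 455, 145 and 64.2 CPM in humdG, and Eya1 at 92.1 and 93.4 CPM in Pax7-only against 12.7 and 12.2 CPM in Myog-only cells. Vgll2 ran opposite, from 10.8 to 228 CPM and from 15.3 to 226 CPM, as did Mef2a, a partner of Myog at muscle promoters, from 46.1 to 232 CPM and from 45.0 to 214 CPM. Id3, an inhibitor that withholds the partners of helix-loop-helix factors, was lower in Myog-only cells, at 57.3 against 291 CPM and 48.9 against 177 CPM. Among growth genes Dlk1, an imprinted membrane protein, stood at 1974 and 1967 CPM against 757 and 715 CPM, Igfbp5, a binding protein of insulin-like growth factors, at 519 and 459 CPM against 93.9 and 94.8 CPM, and Mstn, the inhibitor of muscle growth myostatin, at 87.3 and 39.9 CPM against 38.2 and 18.3 CPM. In humWT the directions of Vgll2 and Dlk1 turned under alternative rules for members that leave few cells, as given further below. Of the growth genes 7 of 16 in humWT and 6 of 15 in humdG were at least 2-fold lower in Myog-only cells, and 1 in each, Cdkn1c, was higher (median log2 ratios -0.82 and -0.78). Of 8 regulators tested, 2 were higher and 5 lower in humWT (median -1.91), and 1 higher and 3 lower in humdG (median -0.58).

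**Figure D4:**
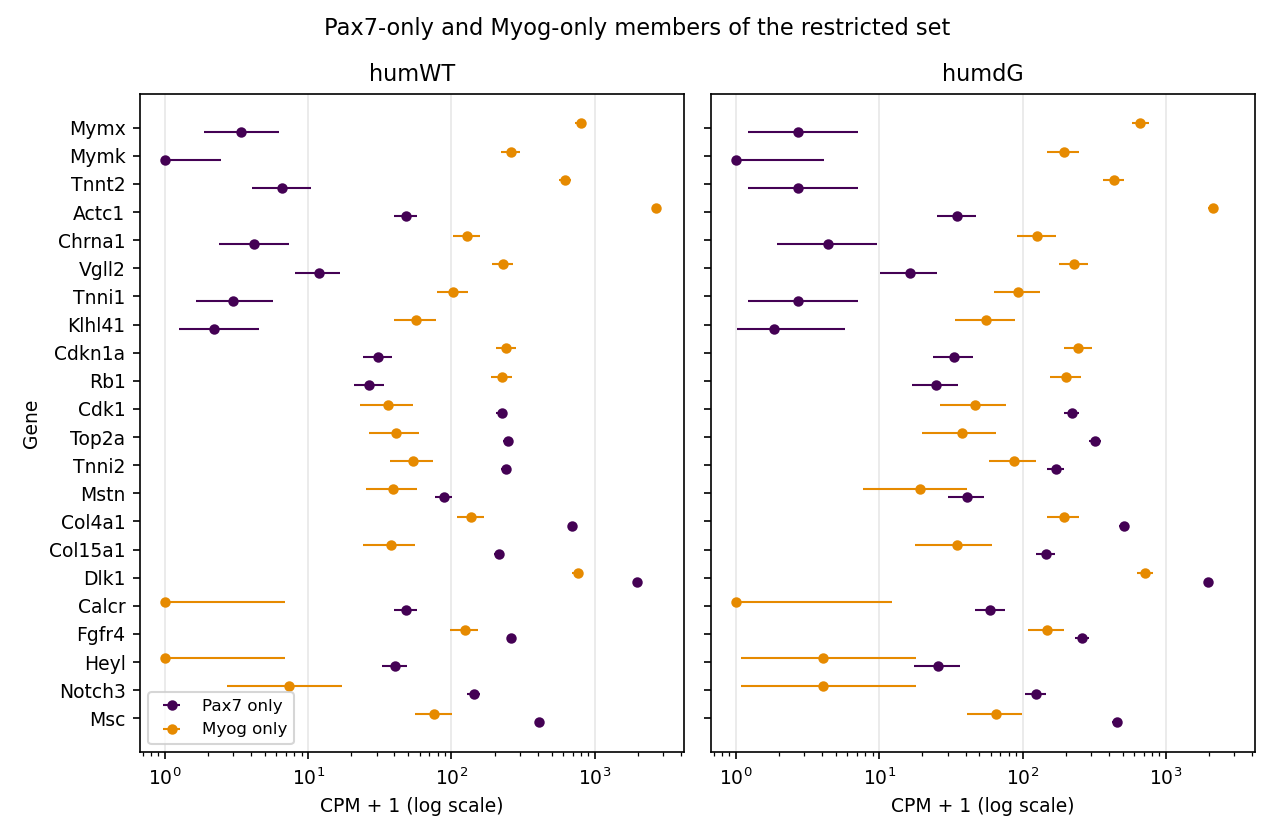
Levels of 22 genes in CPM plus 1 (x axis, log scale) in Pax7-only and Myog-only cells of the restricted set, with humWT and humdG side by side and exact 95% Poisson intervals for counting error. Genes were picked after their values were seen. Mymx, Mymk, Actc1 and Tnnt2 lie far higher in Myog-only cells, and Notch3, Calcr and Heyl in Pax7-only cells, in both libraries.

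Over all genes, the 15 with the highest ratio of Myog-only to Pax7-only cells in the lower of the 2 libraries were Mymx, Actc1, Tnnt2, Mymk, Myo16, Chrna1, Vgll2, Tnni1, Sept4, Gm28653, Frmd4b, Fndc5, S100a16, Kcnk13 and Spg21. The 15 at the other end were Chodl, Crip1, Notch3, Nppc, Tagln, Fap, Vcan, Egfr, Sncaip, Gpc3, Il1rapl2, Gxylt2, Tspo, Hmcn2 and Islr. Both rankings were made after the values had been seen. Chodl, a lectin-like membrane protein, stood at 193 and 162 CPM in Pax7-only and at 4.77 and 6.11 CPM in Myog-only cells, and Nppc, the precursor of C-type natriuretic peptide, at 78.9 and 148 CPM against 0 UMIs, at least 16.5-fold and 16.1-fold higher. Gm28653 is a long non-coding RNA gene at chr1:20669882-20684298 on the plus strand, and stood at 50.5 and 51.8 CPM in Pax7-only and at 492 and 529 CPM in Myog-only cells. Of the first 15 genes, 11 had a promoter in the RefSeq table, and 8 of those (72.7%) held a CANNTG and 3 (27.3%) a CAGCTG. Of 11 found for the other 15, 5 (45.5%) held a CANNTG and 1 (9.09%) a CAGCTG. Over all 27025 windows the shares were 66.0% and 12.8%, and with 11 promoters a set nothing is read from these counts.

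RNA of Mki67 or Top2a was found in 70.1% of humWT and 75.6% of humdG precursors, but the precursors are deep. After thinning every cell to 1000 UMIs, which left out 1 shallower humWT precursor, 20.2% (15.8 to 25.1%) of humWT and 24.4% (17.3 to 32.7%) of humdG precursors had it. Red blood cells stood at 18.2% and 25.3% thinned and at 53.0% and 58.2% unthinned, so after thinning the precursors and red blood cells differed by less than the counting intervals of the precursors. No order is read from these shares. Levels depended on the state. Top2a stood at 247 and 320 CPM in restricted Pax7-only cells against 103 and 147 CPM in red blood cells, Cdk1 at 223 and 219 CPM against 25.5 and 60.3 CPM, and Birc5, a regulator of chromosome segregation, at 161 and 207 CPM against 30.5 and 47.2 CPM. Myog-only cells, at 39.8 and 36.7 CPM of Top2a, lay below red blood cells. Within the restricted set the thinned share was 18.5% (12.4 to 26.1%) and 24.2% (14.2 to 36.7%) in Pax7-only cells. In Myog-only cells it was 9.38% (3 of 32 cells, 1.98 to 25.0%) and 5.56% (1 of 18 cells, 0.141 to 27.3%), with intervals that overlap those of Pax7-only cells.

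Between genotypes, the 4 rule genes and most muscle genes of the precursors had similar levels. In the restricted set Pax7 stood at 162 CPM in humWT and 142 CPM in humdG (log2 ratio of humdG over humWT -0.19, -0.41 to 0.01), Myf5 at 154 and 147 CPM (-0.06), Myod1 at 117 and 122 CPM (0.06) and Myog at 520 and 461 CPM (-0.17, -0.29 to -0.06). Since Pax7, Myf5, Myod1 and Myog chose the cells, these values describe the members. Msc (0.15), Fgfr4 (0.10), Cdh15 (-0.13), Mymx (0.10), Mymk (-0.18), Actc1 (-0.10), Dlk1 (-0.03) and Cdkn1c (0.06), which the rule did not use, lay between -0.18 and 0.15 on the same log2 scale. Over all 11018 genes with at least 20 UMIs in the restricted set, 182 (1.65%) were at least 2-fold higher and 406 (3.68%) lower in humdG, around a median log2 ratio of -0.04. In the surface list 0 of 24 genes, in the cycling list 0 of 20, in the regulators of head muscle 0 of 9 and in the growth list 0 of 16 differed by 2-fold or more in either direction.

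Over all members the picture was wider. Of 13824 genes with at least 20 UMIs, 1836 (13.3%) were at least 2-fold higher and 768 (5.56%) lower in humdG, around a median log2 ratio of 0.20, against 1.65% and 3.68% in the restricted set. The matrix list had 10 of 19 genes at least 2-fold lower in humdG over all members (median -1.47), and 1 of 18, Col6a3, in the restricted set (median -0.45), where every tested gene of the list lay below 0, at -0.13 or lower. The contractile list had 7 of 28 lower and 1 higher (median -0.53), against 1 of 24 each way in the restricted set (median 0.02), and the growth list 6 of 17 lower against 0 of 16. The retinal progenitor list went from 7 of 8 genes higher in humdG to 2 of 8, and the retinal neuron list from 7 of 7 to 1 of 5. In the connective tissue list 6 of 9 genes were lower over all members and 3 of 8 in the restricted set. Since the restricted set was made by limiting these 3 lists, their narrowing is set by the choice. Lists it did not limit went both ways: the tendon list had 4 of 4 genes lower over all members and 0 of 2 in the restricted set, the cartilage list 1 of 5 (median -0.25) and 5 of 5 (median -3.14, or -3.08 with a group at 0 set to 3 counts), and the red blood cell list 2 of 5 (median -0.76) and 4 of 5 (median -1.11). The part of RNA from other cells in the genotype differences was not tested.

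**Figure D5:**
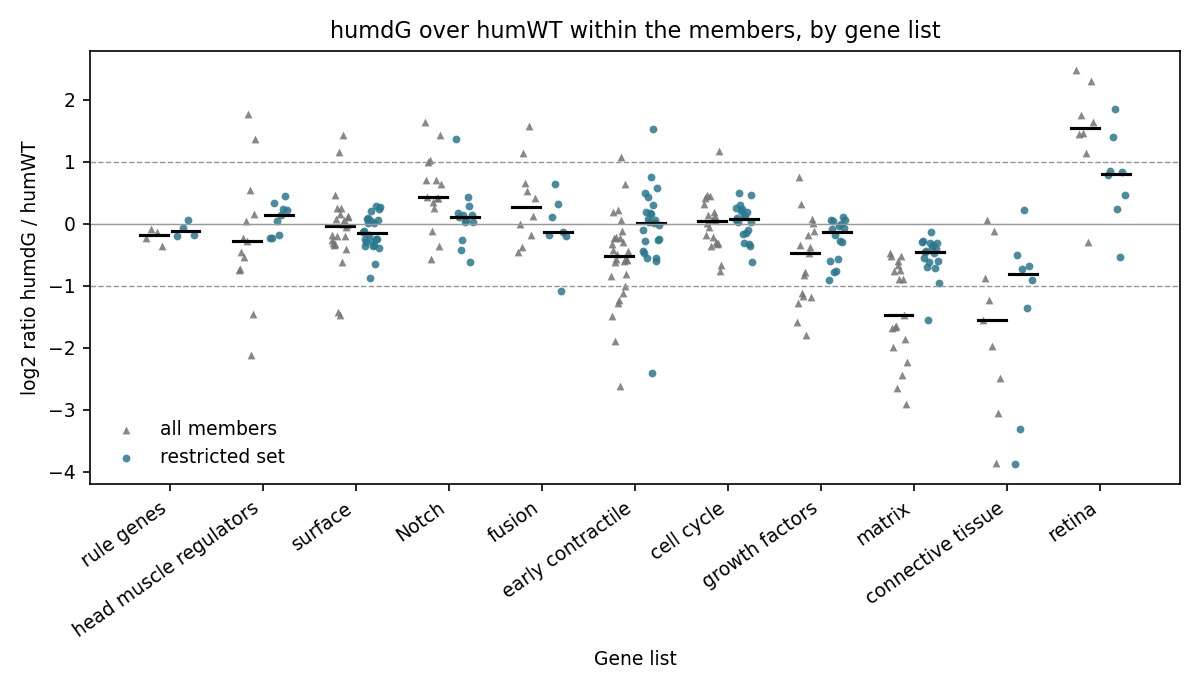
Each point is 1 gene with at least 20 UMIs, placed by its list (x axis) and its log2 ratio of humdG over humWT (y axis). All members and the restricted set are shown side by side, with a bar at the median of the list. Medians of the matrix, contractile, connective tissue and retinal lists lie away from 0 over all members and closer to 0 in the restricted set, where the matrix median is -0.45 and where the retinal and connective tissue lists are low by choice.

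The genes with the most extreme ratios over all members, among those with at least 100 UMIs, were Ptx4, Cilp, Tnmd, Grem1 and Fmod on the lower side and Kcnip1, Sox2ot, 4930570B17Rik, Cacng3 and Csmd2 on the higher side of humdG. Tnmd, the tendon protein tenomodulin, stood at 271 CPM in humWT and 3.43 CPM in humdG, with the 20 tendon-rich humWT cells described above, and Fmod, a proteoglycan of tendon, at 123 and 3.14 CPM. The direction of Tnmd turned without members with RNA of another cell type, which left few cells. Sox2ot, a non-coding RNA around the retinal factor Sox2, stood at 11.2 and 120 CPM. In the restricted set Col2a1, Lum, Col8a1, Cpe and Col11a1 were lowest in humdG, and Hist1h2bl, Dcc, Hist2h2bb, Cdk8 and Hist1h2bj highest. Col2a1 stood at 41.6 and 1.60 CPM in precursors and at 105 and 15.1 CPM in red blood cells. Hist1h2bl stood at 8.42 and 62.8 CPM in precursors and at 7.34 and 62.2 CPM in red blood cells, and Cdk8, a kinase of the Mediator complex, at 1141 and 4111 CPM against 5437 and 11855 CPM. For Dcc, 1 cell held 32.1% of the humdG UMIs. Each of Col2a1, Hist1h2bl and Cdk8 thus differed in the same direction in cells that should lack muscle RNA.

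A few genes of the lists stood beyond 2-fold between genotypes in the restricted set. Chrng, the gamma subunit of the embryonic acetylcholine receptor, stood at 6.93 CPM in humWT and 20.2 CPM in humdG (log2 ratio 1.54, 0.80 to 2.30), while red blood cells had 0.772 CPM and 0 UMIs. Dll1 stood at 9.41 and 24.5 CPM (1.38, 0.73 to 2.04), with 3.47 and 11.8 CPM in red blood cells. Myh8 stood at 21.0 and 3.72 CPM (-2.41), with 71.0 and 28.2 CPM in red blood cells, above the level in precursors in each library. Col6a3 (-1.56) and Kirrel3 (-1.09), an adhesion protein of fusion, were lower in humdG. Red blood cells had 98.5 and 40.6 CPM of Col6a3, lower in humdG as well, and 13.1 and 12.4 CPM of Kirrel3. These are 1 library against 1, with no replicate.

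Igf2, the fetal growth factor, and H19, the non-coding RNA imprinted with it, were lower in humdG without reaching 2-fold in the restricted set. Igf2 stood at 1030 and 685 CPM (log2 ratio -0.59) and H19 at 596 and 401 CPM (-0.57). Over all members the H19 ratio was -1.80, and it turned positive without members with RNA of another cell type, which left few cells. Igf2 was also lower in humdG connective tissue cells, at 2496 and 1469 CPM, and in red blood cells, at 402 and 161 CPM, so its difference was not particular to precursors.

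Myrf (chr19:10208272-10240748, minus strand), the gene altered in humdG, was near its background in the precursors. It had 39 UMIs in humWT and 15 in humdG, or 5.27 and 4.28 CPM, and 0.990 and 0.532 CPM in the restricted set. Red blood cells stood at 15.4 and 6.55 CPM and retinal cells at 27.8 and 9.49 CPM. The level of Myrf in CPM in precursors was thus below that of cells that should lack it, and no Myrf expression of their own was detectable at this depth.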

How the data were processed

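The 2 libraries were made with the 10x Genomics 3′ chemistry from 3 pooled E17.5 eye cups per genotype. The deposited values are UMI counts per gene and barcode, which the authors made with Cell Ranger 7.1.0 on mm10, per the labels. Seurat 4.1.1 is also named there. The files held 17421 and 19565 barcodes with 129135207 and 114319529 counts, more cells than the study states, both before and after its filter on genes and mitochondrial counts. No deposited annotation of cells was used and no doublets were removed.

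Counts were summed over cells of a group and library and divided by the group's total, as CPM (counts per 1e6). Levels carry exact Poisson intervals, shares Clopper-Pearson intervals, and ratios exact conditional binomial intervals (95%, counting error only). Log2 ratios add 0.5 counts, and a group at 0 is set to 3 counts for a bound. Genes needed 20 UMIs over both sides of a contrast. A gene was counted as higher or lower at a ratio of at least 2 or at most 0.5, taken between states with 0.5 counts added and between genotypes without. Thinned shares are the expected share over all draws of 1000 UMIs per cell, rounded to whole cells.

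The comparison groups were, in order, fibres (at least 3 of the 5 sarcomere genes and 0.5% of UMIs), connective tissue, retinal cells (at least 3 of 6 retinal progenitor genes) and red blood cells (at least 10% of UMIs from globins). The members and lists were chosen with earlier results of these data known. Named genes were the rule genes, the 4 to 8 list genes with most UMIs, list genes past 2-fold or at 0, the 15 leading genes against all other cells, the 10 at each end against fibres, and the 5 at each end between genotypes with at least 100 UMIs. A few genes that this rule names are not reported here. Genes ranked between states were chosen after their values were seen. The ranking measures add 10 CPM to both sides.

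Alternatives covered the filters on genes, mitochondrial share, Scrublet score, number of rule genes, sarcomere limit, other cell types, summing, scaling, count minimum, pseudocount, thinning depth and state. The restricted set and a Myog threshold of 3 UMIs were added after seeing the data. Calculations used Python 3.11.15, numpy 2.4.6, scipy 1.17.1, pandas 2.3.3, scanpy 1.11.5 and matplotlib 3.10.9, and the ratio calculation was tested on simulated data. Promoters came from RefSeq (GRCm38.p6), and Mymk, Mymx and Msc were not in that table.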

Additional observations from a re-analysis of the deposited data

How the results depend on the processing

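Requiring 3 of the 4 rule genes gave shares of 0.570% in humWT and 0.225% in humdG, leaving out members with RNA of 3 genes of another cell type gave 0.0294% and 0.0784% (5 and 15 members, and the direction between libraries turned), and the restricted set, added after seeing the data, 1.25% and 0.502%. The humWT share of Pax7-only members was then 47.4%, 40% and 64.2%, and 68.8% when Myog needed 3 UMIs, and that of Myog-only members 5.15%, 40%, 15.1% and 12.0%. In humdG the Pax7-only share was 33.3% without members with RNA of another type, and the Myog-only share was 9.30% with 3 rule genes, 46.7% without such members and 13.7% with 3 Myog UMIs. The Myog threshold cannot raise the Myog-only share or lower the Pax7-only share, so these directions were set by the choice. With 3 rule genes, 3 of the 10 markers were at least 10-fold higher in humWT. The number of genes at least 2-fold higher in humdG was 1182 with 3 rule genes, 216 without members with RNA of another type, 182 in the restricted set, 777 with equal weight per cell and 4920 with a minimum of 1 UMI, and the number lower was 141 without members with RNA of another type, 406 in the restricted set, 508 with a minimum of 50 UMIs and 3439 with 1 UMI. Scaling by the median of ratios made 10.2% of genes higher and 7.47% lower, and equal weights 5.62% and 7.20%, in place of 13.3% and 5.56%. The thinned cycling share in humWT was 25.8% with 3 rule genes, 0% without members with RNA of another type, 12.0% at 500 UMIs and 30.9% at 2000 UMIs, and in humdG 13.3% without such members, 14.5% and 36.4%. Among gene ratios of at least 2-fold, 8 pairs of a ratio and a setting reversed in direction. Without members with RNA of another type, the humWT state ratios were 1.85 for Dlk1, -0.24 for Chrna1 and -0.10 for Vgll2, and the genotype ratios 0.34 for H19 and 0.49 for Tnmd. With 3 rule genes, which leaves 5 humWT Myog-only cells, they were -1.87 for Tnnt2 and -0.60 for Vgll2, and 0.59 for Fgfr4 between humdG states. With 3 rule genes a Pax7-only or Myog-only cell must hold both Myf5 and Myod1, so both classes differ from those of the main rule. The cause of these reversals was not tested, and both settings leave few cells. The other values were also counted as pairs of a result and a setting. For shares and counts, 91 pairs stayed within the main value's counting interval (shares) or within 1.5 times it (counts), and 35 moved further. For log2 ratios, 623 pairs stayed within 1.5-fold of the main ratio and 113 moved further without such a reversal. No paired analysis was possible because each genotype is 1 library. Depth limits low genes: 3 counts are 1.20 CPM in humWT Pax7-only and 4.77 CPM in humWT Myog-only cells of the restricted set.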

Other observations

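Lists not yet described gave the following levels in the precursors. The cartilage list (Col2a1, Acan, Matn4, Matn1, Col9a1 and Cnmd) summed to 237 CPM in humWT and 216 CPM in humdG members, and to 90.4 and 9.04 CPM in the restricted set, against 232 and 58.9 CPM in red blood cells. The blood vessel list stood at 93.2 and 78.8 CPM in all members and at 19.1 and 11.2 CPM in the restricted set, and the macrophage list at 38.9 and 13.1 CPM and at 8.17 and 6.38 CPM. The pericyte and smooth muscle list kept its level, at 102 and 86.8 CPM in all members and 110 and 87.3 CPM in the restricted set, and its most abundant gene was Notch3, which Pax7-only precursors also held. The Schwann cell list stood at 18.1 and 25.4 CPM and the surface epithelium list at 45.4 and 55.1 CPM over all members. The red blood cell list stood at 2054 and 1195 CPM over all members and at 2364 and 1109 CPM in the restricted set.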
